A study of Drosophila melanogaster with 2 samples.

Results

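Cytoplasmic translation genes of the adult Drosophila melanogaster hindgut were compared between 2 ages. The set comprised the ribosomal proteins, the initiation and elongation factors and the cytoplasmic tRNA synthetases. Members were the protein-coding genes whose symbol in the Ensembl annotation starts with RpL, RpS or RpLP plus a digit (or is sta), with eIF or eEF plus a digit, or consists of a 3-letter amino acid code followed by RS. They had to lie on chromosome arm 2L between its left end and the gene RpL21, or on 3L between its left end and the gene AlaRS-m, both included. The rule found 33 genes among the 5237 features of these 2 stretches, out of 23932 features in the whole table. They were 21 ribosomal protein genes, 5 initiation factor genes, 2 elongation factor genes and 5 synthetase genes. Of the 33, 31 had a test between the ages. RpL7-like and RpS28-like, named as paralogs of ribosomal protein genes, had means of 0 and 0.62 normalized counts per the authors' deposited table and no adjusted p.

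All animals carried bynGal4, a driver line named for the hindgut gene brachyenteron, and were reared at 25 °C. Young hindguts were dissected as soon as the adults left the pupal case. Mature hindguts came from adults kept for 4 days at 18 °C after that point, so age and the temperature of adult life cannot be told apart. The labels give 100 to 150 guts per condition and 3 replicates for each age, hence 6 libraries, and do not say whether the replicates were separate collections of animals. The p-values therefore reflect how far these libraries vary, and that variation may be technical.

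The ribosome is built from a large and a small subunit, each a set of proteins on ribosomal RNA, and its proteins are needed in fixed proportion to each other. Initiation factors bring the small subunit to the start codon of a messenger RNA. Elongation factors then carry in charged tRNAs and move the ribosome along, while tRNA synthetases attach each amino acid to its tRNA. Ribosomal protein transcripts rank among the most abundant in most tissues, and in animals their output is tied to nutrition and growth signalling through TOR.

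The restriction to these stretches rests on levels, because the match of gene names to rows is in doubt on the rest of the genome. There, 128 further genes carry such symbols, and the authors' deposited table gives their rows a median of 2.43 normalized counts, with 76 listed below 10. Of 72 rows there with ribosomal protein names, 30 were listed at 0, which goes against the levels these genes have in most tissues, and the cause is not known. Not all such rows were low: the highest means were 17816 under an initiation factor name, 3859 under a synthetase name and 2309 under a ribosomal protein name per the authors' deposited table. At the edge on 2L, RpL21 was the last ribosomal protein gene inside, with a mean of 39221, and the first row outside, named RpL5, had a mean of 145.1 per the authors' deposited table. On 3L the last inside was RpL28 at 55991, and the first outside, a row named RpL18, stood at 714.2 per the authors' deposited table. Because of that doubt, values outside the stretches are not read as the levels of the named genes. Both stretches ended before the first ribosomal protein gene under a mean of 10000. The paralogs RpL7-like and RpS28-like, which lie inside 2L at or near 0, were left aside. The end on 3L, after AlaRS-m, lay between RpL28 and the row named RpL18, so this limit alone does not set it. Past RpL28 on 3L, where eIF1 and eIF5B lie, no ribosomal protein level speaks for the match of names. With this limit, the high levels of the other ribosomal protein genes inside are partly built in. The limit itself uses no fold changes, but the stretches were chosen with earlier results of these data known. The means of the whole table summed to 2.94e+07 normalized counts, and depth per library was not analysed here.

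Changes between the ages were small in all 4 classes. No member differed by as much as 2-fold. Of 19 ribosomal protein genes tested, 9 were higher in young hindguts and none was higher in mature ones (DESeq2 Wald test, adjusted p under 0.05), with a median log2 change of 0.17 for young against mature. All 5 synthetases had estimates toward mature, and 2 of them, AsnRS and SerRS, passed. Of 5 initiation factors, 1 passed, eIF3i, which was higher in mature. The elongation factors went opposite ways, with eEF1delta higher in young and eEF2 higher in mature. In bulk tissue, fewer cells of a type and less RNA per cell cannot be told apart.

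Read against all tested features of the 2 stretches, 20.7% were higher in young and 19.7% higher in mature, with a median log2 change of -0.0070 over 2604 features. Abundant genes are called more often, so a second background was taken over other features of the stretches whose means lay within the range of the ribosomal protein members. Of these 54 features, 46.3% were higher in young, against 47.4% of the ribosomal protein genes, and 37% were higher in mature, against 0% of them. The share higher in young was thus close to that of other genes of like abundance. The 54 features had a median log2 change of 0.12, and their median absolute change was 0.70, against 0.18 for the ribosomal protein genes. No test was run on these shares, since genes are not replicates.

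**Figure D1:**
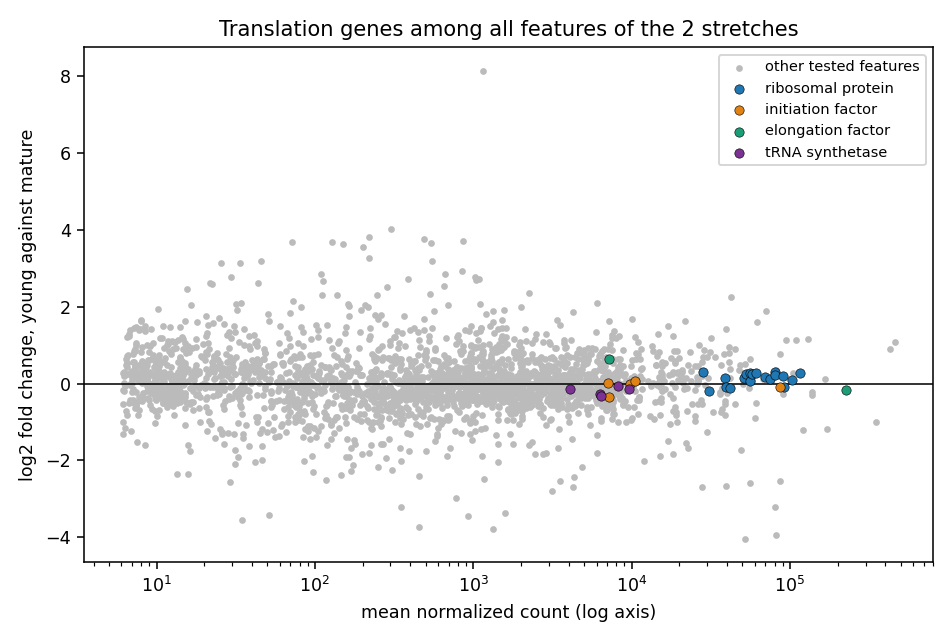
Each point is a tested feature of the 2 stretches, with its mean normalized count on a log axis and its log2 fold change, young against mature, on the vertical axis; colours mark the 4 classes of members. The 31 members lie near 0, between -0.34 and 0.64, at means from 4097 to 225211, while other features of like abundance reach beyond 2-fold in both directions.

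Among large subunit proteins, 6 of 14 were higher in young hindguts. RpL7 (FBgn0005593; 2L, 10201004 to 10202321) had the largest estimate of all ribosomal protein members. Its mean and fold imply levels of 88842 normalized counts in young and 71802 in mature hindguts, a 1.24-fold difference (95% Wald interval 1.12 to 1.36). In the authors' deposited table this was a log2 change of 0.31 with a standard error of 0.07 (adjusted p = 8.09e-05). Implied levels of this kind take the deposited mean as the average over equal numbers of young and mature libraries and the deposited fold as it stands; values per library were not analysed here, so overlap of single libraries cannot be stated.

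RpL23A (3L, 1666288 to 1668654) had implied levels of 125723 in young and 104464 in mature. Its log2 change was 0.27 (SE 0.07, adjusted p = 0.000692) per the authors' deposited table. RpL28 (3L, 3220911 to 3222960), a protein of the large subunit in animals that yeast lacks, had implied levels of 61177 and 50804 and also a log2 change of 0.27 (adjusted p = 0.00130) per the authors' deposited table. RpL9 stood at 57006 in young and 47798 in mature, with a log2 change of 0.25 (adjusted p = 0.00273) per the authors' deposited table. The smallest calls were those of RpL27A and of RpL8, a protein next to the site where peptide bonds are made. RpL27A had a log2 change of 0.21 (adjusted p = 0.0290) and RpL8 one of 0.19 (adjusted p = 0.0307) per the authors' deposited table.

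The 8 large subunit proteins that did not pass lay on both sides of 0. RpLP1, a protein of the stalk that draws elongation factors to the ribosome, had implied levels of 105698 in young and 98721 in mature, and its interval for young over mature ran from 0.968 to 1.18. RpL40, which is made as a fusion with ubiquitin, had a log2 change of 0.15 (adjusted p = 0.163) per the authors' deposited table. RpL30, RpL13 and RpL24 had log2 changes of 0.14, 0.12 and 0.07 per the authors' deposited table. Estimates toward mature were those of RpL21 at -0.09, RpL37A at -0.11 and RpL36A at -0.18 per the authors' deposited table. RpL36A (2L, 8041873 to 8042909) had the widest error of the 31 members, a standard error of 0.12, and its interval for young over mature ran from 0.747 to 1.04.

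Of 5 small subunit proteins, 3 were higher in young. RpS21 (2L, 2856070 to 2857029) had implied levels of 31101 in young and 25392 in mature. The log2 change of RpS21 was 0.29 (SE 0.10, adjusted p = 0.0126) per the authors' deposited table. RpS27A (2L, 10408352 to 10410456), the other ribosomal protein made as a fusion with ubiquitin, had implied levels of 67088 and 55607 and a log2 change of 0.27 (adjusted p = 0.00785) per the authors' deposited table. RpS13 had implied levels of 63048 and 52658 and a log2 change of 0.26 (adjusted p = 0.00198) per the authors' deposited table. RpS2 missed the threshold at a log2 change of 0.17 (adjusted p = 0.0607) per the authors' deposited table, though it passed under 3 of the alternative settings. RpS26 had an estimate toward mature, -0.08 (adjusted p = 0.492), per the authors' deposited table, with implied levels of 88654 in young and 93891 in mature.

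The 19 ribosomal protein genes differed less from each other in fold than other features of like abundance did. Their log2 changes ran from -0.18 to 0.31 with an SD of 0.15, against a median standard error of 0.07 for a single gene and an SD of 1.34 over the 54 other features of like abundance. This was shared by the synthetases (SD 0.11 against 0.59 in other features of their range) and the initiation factors (0.16 against 0.84). The 2 elongation factors had an SD of 0.56 against 0.85. Of the 19, 14 had an estimate under 1.2-fold in either direction, as had 18.5% of the 54. No gene's 95% interval reached beyond 1.40-fold toward young. Summed over the 19 genes, the implied young level was 1.11 times the implied mature level, with ratios of 1.11 for the large subunit genes and 1.10 for those of the small subunit. When the test asked for more than a 1.2-fold change, none of the 19 passed.

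**Figure D2:**
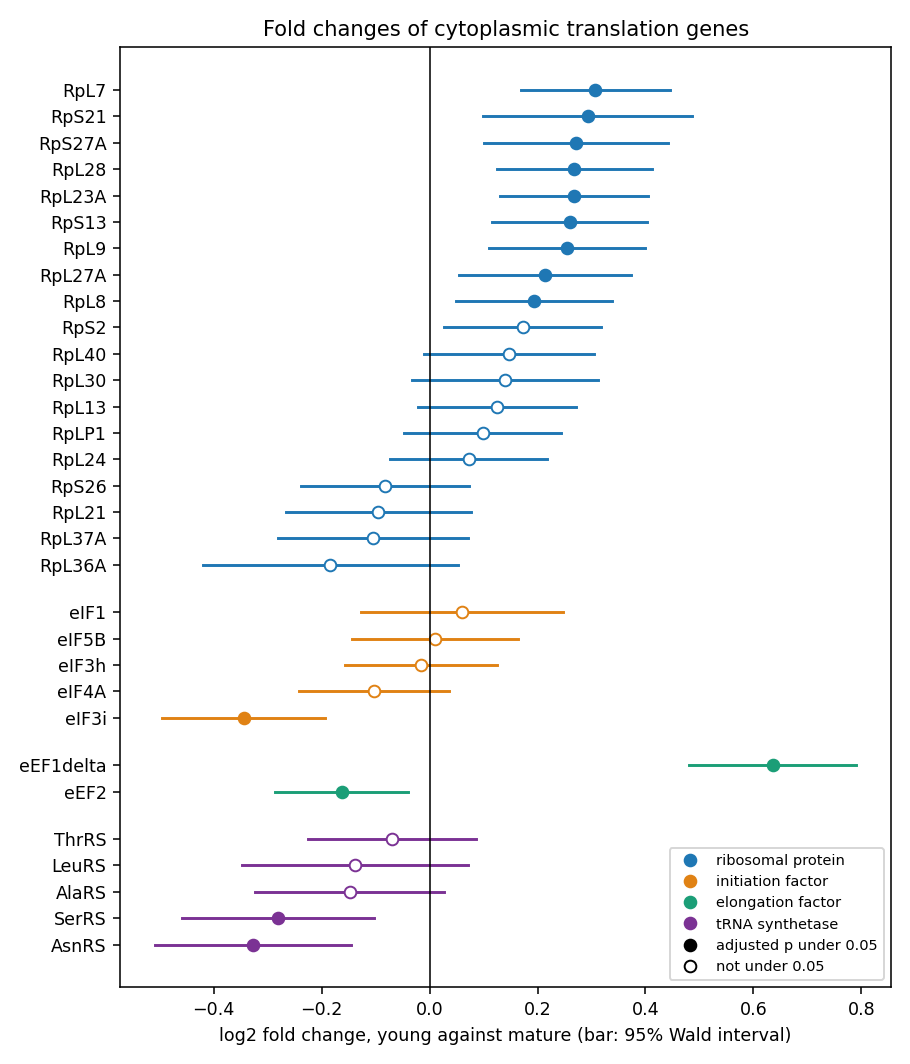
Log2 fold changes of the 31 tested members, young against mature, with 95% Wald intervals; filled points have an adjusted p under 0.05. The 9 filled ribosomal protein points all lie to the right of 0, all 5 synthetases lie to the left, and eEF1delta lies farthest right at 0.64.

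Initiation factors mostly did not differ beyond their error. eIF4A, the RNA helicase that unwinds the leader of messenger RNAs, had implied levels of 83164 in young and 89324 in mature, with a log2 change of -0.10 (adjusted p = 0.295) per the authors' deposited table. eIF1, which guards the choice of start codon, had a log2 change of 0.06 (adjusted p = 0.709) per the authors' deposited table. eIF5B, the GTPase that joins the subunits, was at 0.01 (adjusted p = 0.947) per the authors' deposited table, and its interval for young over mature ran from 0.905 to 1.12. The background at like abundance was 38.7% of 256 other features higher in young and 30.1% higher in mature, against 0 and 1 of these 5 genes.

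Both eIF3 subunits of the set belong to the scaffold complex that binds the small subunit, yet only eIF3i passed. eIF3i (FBgn0015834; 2L, 4966367 to 4967775) had implied levels of 6381 in young and 8102 in mature. This was a log2 change of -0.34 (SE 0.08, adjusted p = 5.20e-05) per the authors' deposited table, or 1.27-fold higher in mature. eIF3h had implied levels of 9776 and 9884, and its log2 change was -0.02 (SE 0.07, adjusted p = 0.908) per the authors' deposited table. The difference between these 2 genes was not tested. On the opposite strand, eIF3i overlaps CG34125, whose mean was 24.0% of that of eIF3i and which was itself higher in mature (log2 -0.54, adjusted p = 4.50e-05) per the authors' deposited table. Its part in the eIF3i value was not tested.

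The largest change of any member was that of eEF1delta (FBgn0032198; 2L, 10232507 to 10234450), the guanine exchange subunit that recharges the factor carrying tRNAs to the ribosome. Its implied level was 8805 normalized counts in young and 5668 in mature hindguts. The authors' deposited table gives a log2 change of 0.64 with a standard error of 0.08 (adjusted p = 1.54e-14), which is 1.55-fold (95% interval 1.40 to 1.73). It was the single member still called when the test asked for more than a 1.2-fold change, which 11.8% of the features of the stretches passed toward young and 9.06% toward mature, and the single one higher in young after recentring on the ribosomal proteins, at 0.46. No other annotated gene overlaps it.

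Among 264 other features with means between those of the 2 elongation factors, 39% were higher in young and 31.1% higher in mature.

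eEF2 (FBgn0000559; 2L, 21677913 to 21682164), the GTPase that moves the ribosome along by a codon, had implied levels of 212484 in young and 237937 in mature. The log2 change of eEF2 was -0.16 (SE 0.06, adjusted p = 0.0314) per the authors' deposited table. This call was lost on recentring by the median of protein-coding features, a shift of 0.02, where the adjusted p was 0.0703.

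All 5 synthetases had estimates toward mature hindguts, with log2 changes between -0.33 and -0.07 and a median of -0.15. AsnRS (2L, 19129469 to 19131954), which charges asparagine tRNA, had implied levels of 5691 in young and 7137 in mature, a log2 change of -0.33 (SE 0.09, adjusted p = 0.00214) per the authors' deposited table. SerRS (2L, 3035493 to 3037403), which charges serine tRNA, had implied levels of 5689 and 6914 and a log2 change of -0.28 (adjusted p = 0.00839) per the authors' deposited table. AlaRS, LeuRS and ThrRS, for alanine, leucine and threonine, had log2 changes of -0.15, -0.14 and -0.07 (adjusted p = 0.215, 0.365 and 0.575) per the authors' deposited table. Their intervals for young over mature were 0.799 to 1.02, 0.785 to 1.05 and 0.856 to 1.06. Among 273 other features with means in the synthetases' range, 31.1% were higher in young and 32.2% higher in mature, against 0 and 2 of the 5. Summed over the 5 genes, the implied young level was 0.879 of the mature level.

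Set against the ribosomal proteins, most other members stood lower in young hindguts, eEF1delta excepted. With all fold changes recentred on the median of the ribosomal protein genes (0.17), which takes these genes as unchanged, all 5 synthetases were higher in mature, with log2 changes from -0.50 to -0.24, and none in young. So were eIF4A (-0.28), eIF3h (-0.19) and eIF3i (-0.52), as well as eEF2 (-0.34), while eIF1 and eIF5B did not pass. The same recentring raised the share of all features in the stretches that were higher in mature from 19.7% to 31% and lowered that higher in young from 20.7% to 15.8%. It adds no error for the shift.

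Levels were compared between genes per length, as the mean normalized count per kilobase of annotated exon. On this scale the ribosomal protein genes ran from 33547 for RpS21 to 133085 for RpLP1, a 3.97-fold spread, with a median of 60096. RpL27A followed RpLP1 at 126983, then RpS27A at 103628 and RpL23A at 87126. eEF2, at 73695 per kilobase, and eIF4A, at 34776, lay within the range of the ribosomal proteins. The other factors were lower, with eIF1 at 15456, eEF1delta at 7798, eIF3h at 6571, eIF3i at 6152 and eIF5B at 1618 per kilobase. Synthetases lay between 1041 for LeuRS and 3297 for SerRS, with a median of 2818. The median ribosomal protein gene was thus 21.3 times the median synthetase gene per kilobase of exon, or 33.2 times per kilobase of coding sequence. This ratio is partly built in, since the limit on means inside the stretches was set for ribosomal protein genes and not for synthetases. Errors of the levels over libraries were not analysed here, so neighbours in this order are not separated.

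The order within the ribosomal proteins depended on the length used. RpS26, whose annotated exons span 1864 bases for 342 coding bases, ranked 16 of 31 per exon length and 2 of 31 per coding length. RpLP1 was first on both scales. The differences between ages were small beside the differences between genes: the largest, that of eEF1delta, was 1.55-fold, whereas levels per kilobase of exon spanned 128-fold over the 31 members.

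**Figure D3:**
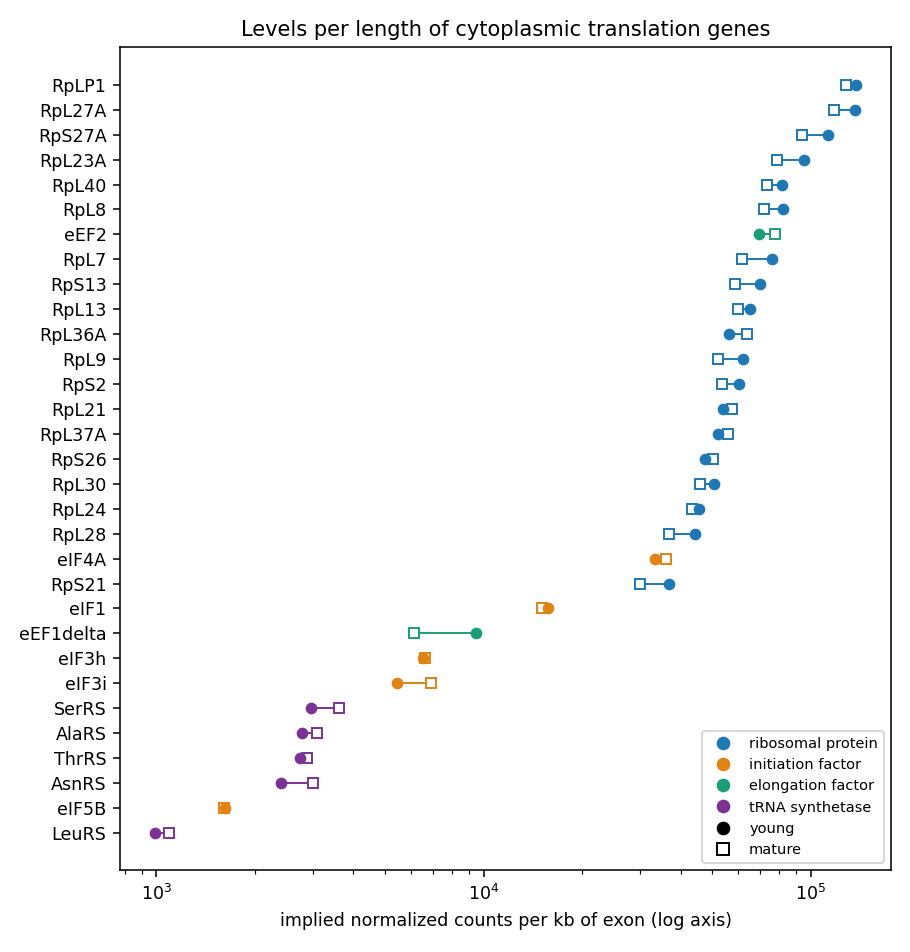
Implied young (circles) and mature (squares) levels of the 31 tested members, in normalized counts per kilobase of exon on a log axis, ordered by their mean level. The ribosomal proteins with eEF2 and eIF4A occupy the upper range, and the synthetases with eIF5B the lowest positions, while the distance between the ages is small for all but eEF1delta.

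Gene structure differed between the classes as well. Ribosomal protein genes were compact, with a median span of 1288 bases and a median coding length of 453 bases, against 3420 and 2241 bases for the synthetases. eIF5B was the longest, with a span of 32320 bases. Small nucleolar RNA genes, many of which guide chemical marks on ribosomal RNA, lie inside 5 of the tested members. These are RpL27A, RpL36A, RpL30, RpL23A and RpL28, with 12 small nucleolar RNA genes in all. Some of those in RpL28 and RpL23A have orphan names that give no target. The means of the small nucleolar RNA genes ran from 0 to 43.4 normalized counts per the authors' deposited table. Of the 31 members, 18 overlap no other annotated feature and 9 overlap another protein-coding gene. Apart from CG34125 at eIF3i, the overlapping coding gene had at most 9.49% of the member's mean. That highest value was for Ip259, which shares its strand with RpS27A and was higher in mature (log2 -0.33, adjusted p = 0.000519) per the authors' deposited table. Whether reads were counted by strand is not given in the sources used here.

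Members within 50 kilobases of the next one formed 4 pairs, whose estimates were alike in some and not in others. RpL28 and eIF1 are divergent genes with 380 bases between them on 3L, and had log2 changes of 0.27 and 0.06 per the authors' deposited table. RpS13 and AlaRS lie 13.6 kilobases apart on 2L, with log2 changes of 0.26 and -0.15 per the authors' deposited table. RpL7 and eEF1delta, 30.2 kilobases apart, were both higher in young. The remaining pair, eIF3h and RpL37A, lies 17.9 kilobases apart with neither called. The difference within each pair was not tested.

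Of 10 ribosome biogenesis genes in the stretches, 0 passed toward young and 3 toward mature, against 20.7% and 19.7% of all tested features there, and the median log2 change was -0.30. Backgrounds of like abundance were not taken for this list or for those that follow. Ns4, a GTPase of the nucleostemin family, had implied levels of 1710 in young and 2453 in mature, with a log2 change of -0.52 (adjusted p = 2.10e-06) per the authors' deposited table. CG4364 had a log2 change of -0.47 (adjusted p = 5.40e-09) and mbm, a nucleolar protein, one of -0.42 (adjusted p = 0.106) per the authors' deposited table. The remaining call, Rrp1 (-1.28, adjusted p = 2.76e-10 per the authors' deposited table), is in the fly a DNA repair nuclease and not a ribosome factor, and without it 2 of 9 were higher in mature, near the share of all tested features.

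Transcription and quality control genes had 1 call toward mature in each list, a share near the 19.7% of all tested features of the stretches. The first list held 5 genes for transcription by RNA polymerases I and III, which make ribosomal and transfer RNAs. Bdp1, not itself a polymerase subunit, was higher in mature (log2 -0.35, adjusted p = 0.00950) per the authors' deposited table. The subunit genes Polr1B (-0.22), Polr1D (0.33) and Polr1F (-0.22) were among those that did not pass per the authors' deposited table. Of 4 termination and surveillance genes, the nonsense-mediated decay gene Smg5 was higher in mature (log2 -0.31, adjusted p = 0.00935) per the authors' deposited table. The release factor gene eRF3 (0.10) and the ribosome rescue genes HBS1 (-0.03) and pelo (-0.01) did not pass per the authors' deposited table.

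Regulators of translation went both ways. Of 8 translation control genes tested, 1 was higher in young and 2 in mature, against 20.7% and 19.7% of all tested features. Rack1 (2L, 7825347 to 7827315), a scaffold protein seated on the small subunit, had implied levels of 91504 in young and 71597 in mature. Its log2 change of 0.35 (SE 0.07, adjusted p = 8.64e-07) per the authors' deposited table exceeded the estimate of each of the 19 ribosomal protein members. Thor, which binds the cap-binding factor and holds back initiation when TOR is low, had implied levels of 13709 in young and 24248 in mature. REPTOR-BP, whose partner is held back by TOR, had implied levels of 899.3 and 2660 in the same order. Their log2 changes were -0.82 (adjusted p = 1.66e-08) and -1.56 (adjusted p = 8.69e-37) per the authors' deposited table. The kinase gene mTor itself was at 0.09 (adjusted p = 0.532) and the RNA-binding Larp4B at 0.19 (adjusted p = 0.0603) per the authors' deposited table. No member of the synthetase complex list lay in the stretches.

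Genes for the second translation system of the cell, that of the mitochondrion, had larger estimates. All 23 mitochondrial ribosomal protein, synthetase and factor genes in the stretches were higher in young, against 20.7% of all tested features, with a median log2 change of 0.63 and a range from 0.22 to 1.13. Means of these genes ran from 960 to 6322, and the 20.7% was not matched to that abundance, at which genes are called more often than over all features. For the enzymes charging the same amino acids, LeuRS-m was at 0.77 and AlaRS-m at 0.22, where cytoplasmic LeuRS and AlaRS were at -0.14 and -0.15 per the authors' deposited table. mRpS35 (1.13), mEFG1 (1.06), mRpS6 (1.03) and mRpL13 (0.84) had the smallest p-values per the authors' deposited table. These lists share all libraries, and the difference between them was not tested.

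**Figure D4:**
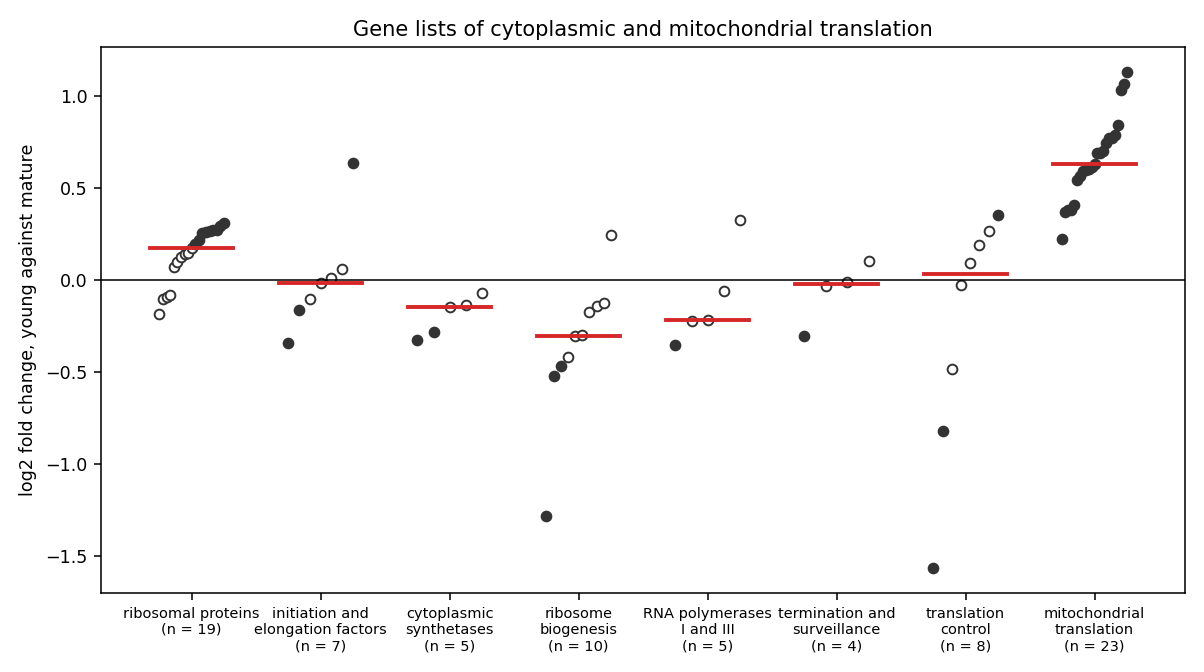
Log2 fold changes, young against mature, of the tested genes of 8 lists; each point is a gene, filled where the adjusted p is under 0.05, and red bars are medians. Medians run from -0.30 for ribosome biogenesis through 0.17 for the ribosomal proteins to 0.63 for mitochondrial translation.

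Markers of several cell types were present in the dissected hindguts. Of the hindgut markers in the stretches, drm and cad were higher in young, bowl was higher in mature and Nha1, at a mean of 165721 per the authors' deposited table, did not pass. Muscle markers were abundant: Mhc, sls and Msp300 had a summed implied level of 752030 in young and 490250 in mature, with 2 higher in young and 1 in mature. Of 3 hemocyte markers 2 were higher in young and 1 in mature, at summed levels of 7216 and 10614. Almost all of that sum was crq, higher in mature at a mean of 8852 per the authors' deposited table. NimC1 and Sr-CI, the 2 higher in young, had means of 26.6 and 35.7 per the authors' deposited table. Both fat body markers were higher in young, at summed levels of 311.6 and 74.1. Midgut markers were low, with summed levels of 698.7 in young and 979.4 in mature. Most of that was Jon25Biii, which had no adjusted p, while Jon25Bi was higher in mature and Jon25Bii did not pass. Also low were the tubule marker Uro (371.7 and 828.8), the germline marker vas (45.2 and 90.1) and the neuronal markers (123.8 and 277.8). Uro and vas did not pass. Of the neuronal markers, nSyb was higher in mature (log2 -1.91), while Syt1 (0.98) did not pass, per the authors' deposited table. None of the markers in the stretches was listed at 0. Since every cell type expresses the translation machinery, the part of these cell types in its values was not tested.

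The authors' 2 deposited lists of selected features, 132 for young and 91 for mature, hold none of the 33 members. The smallest absolute log2 changes on those lists were 1.96 and 1.97 per the authors' deposited table, beyond the largest change of any member.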

How the data were processed

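Per the labels' protocols, Trizol RNA of young and mature hindguts was sequenced as paired reads on a NovaSeq. The submitters' processing notes name Trim Galore, HISAT2, DESeq2 and BDGP6, with no versions. How reads were counted, on which strand and with which annotation is not given in the sources used here. The authors deposited, per feature, a mean of normalized counts (a signal that is never negative), a log2 fold change of young against mature with its standard error, a Wald score, a p-value and a Benjamini-Hochberg adjusted p-value. The log2 base was taken from the authors' use of DESeq2, and the direction from the 2 deposited lists. The deposited score equals the fold change over its standard error, and recomputing the adjustment over 10458 features gave the deposited adjusted p-values.

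The edgeR test of counts needs values per library, which were not analysed here, so the authors' DESeq2 Wald test stands, at an adjusted p under 0.05 over the whole table. Identifiers were matched to Ensembl release 115 of BDGP6, which held 23851 of 23932; positions are 1-based. Exon length is the union of annotated exons. Intervals are the log2 change plus or minus the normal 95% limit times its standard error. The fold changes may have been drawn toward 0 by the authors' DESeq2 fit, which was not tested. Values were computed in Python 3.11.15 (pandas 2.3.3, scipy 1.17.1, numpy 2.4.6) and drawn with matplotlib 3.10.9. The Wald p-value and its adjustment were tested on simulated data, which did not test the recentring. The members, stretches and lists were chosen with earlier results of these data known. All tested members are named, with, of each other list, the 4 smallest p-values, any call of at least 2-fold, and Thor, mTor and Rack1. CG34125, Ip259, RpL5, RpL18, LeuRS-m and AlaRS-m were named after their values were seen or because they overlap, border or parallel members. The marker genes were those of a list set by cell type that lie in the stretches. The alternatives were a threshold of 0.01, testing without the low-mean filter, adjustment over protein-coding features or over the stretches, 2 recentrings, a null of 1.2-fold and, chosen after seeing the data, a mean of at least 100, the biogenesis list without Rrp1 and coding length.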

Additional observations from a re-analysis of the deposited data

How the results depend on the processing

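No paired analysis was possible because no column with values of single libraries was analysed here, so leaving out replicates, the replicate block and edgeR normalizations were not run. Promoter motif shares were not run either. Counts of members higher in young (10) and in mature (4) stayed within 1.5 times with no low-mean filter, with adjustment over protein-coding features or the stretches, at a mean of at least 100, at an adjusted p under 0.01 and on recentring by the protein-coding median. A null of 1.2-fold left 1 member higher in young and 0 in mature, with 0 ribosomal proteins, 0 initiation factors and 0 synthetases called; it also left 0 RNA polymerase, 0 surveillance and, toward young, 0 translation control genes called. Recentring on the ribosomal proteins gave 1 member higher in young and 13 in mature. Among ribosomal proteins these were 0 and 4, whose balance around 0 this centring sets in advance. Also higher in mature were 3 initiation factors, 5 synthetases, 8 biogenesis genes and 2 genes of the RNA polymerase list. That recentring reversed RpL40 (-0.026), RpL30 (-0.033), RpL13 (-0.048), RpLP1 (-0.074), RpL24 (-0.10), eIF1 (-0.11) and eIF5B (-0.16) and put RpS2 at 0 by construction, while recentring on protein-coding features moved eIF3h to 0.0057. The elongation factor call toward mature, eEF2, fell to 0 at an adjusted p under 0.01, on that recentring and under the null of 1.2-fold. Translation control genes higher in young became 2 with adjustment over the stretches and on the protein-coding recentring. These follow from the stricter threshold, the shift or the smaller number of features. Standard errors of 0.06 to 0.12 (log2) set the precision of the members' folds.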
